A study of Mus musculus with 16 samples.

Results

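The 34 genes described here encode the proteins that license replication origins, build and run the replication fork, supply its nucleotides, package the copied DNA and admit cells to S phase. They were chosen by gene symbol, with no measured value in the rule but with earlier results of these data known. All 34 were found among the 46348 genes of the deposited count table. RNA came from MEC1, an established line of mouse epicardial cells, and was enriched for poly(A) before sequencing. Cells received a control siRNA, an siRNA against PRMT1 (an arginine methyltransferase), an siRNA against p53 (a transcription factor that restrains the cell cycle), or both of the latter together. Each of the 4 siRNA treatments was sequenced without and with TGF-beta, a growth factor that drives epicardial cells towards a mesenchymal state, which gave 8 groups of 2 libraries. All groups are MEC1 cells labelled with an siRNA, so the controls carry a control siRNA as well, and no group is labelled as left without one. MEC1 is 1 cell line grown in culture, and neither the dose and duration of TGF-beta nor the time after siRNA is given in the sources used here. The submitters call the 2 libraries of a group biological replicates without naming separate cultures, and p-values therefore cover only library-to-library spread, which may be technical.

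Before S phase, the loading factors Cdc6 and Cdt1 place the MCM2-7 helicase on origins, and on entry Cdc45 and the GINS complex turn it into a working helicase. Polymerase alpha with primase starts each strand, polymerase epsilon extends the leading strand, and the PCNA clamp, its RFC loader, the flap nuclease Fen1 and DNA ligase 1 complete the lagging strand. Most of these genes are transcribed in late G1 by E2F factors, which are released from the pocket proteins (Rb1, Rbl1, Rbl2) by cyclin-dependent kinases such as the cyclin E kinase, and which p21 (Cdkn1a), a p53 target, holds back. TGF-beta is best known as a brake on this step in epithelial cells, while in mesenchymal cells it can go along with division. In bulk RNA, fewer cells in S phase and less of each transcript per cell cannot be told apart.

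Promoter sequence is shown because the members are textbook E2F targets. RefSeq promoter windows of GRCm38.p6 were matched by symbol for 28 of the 34 members, and the 250 bases before each start site were searched on both strands for 4 forms of the E2F consensus: TTTCGCGC, TTTGGCGC, TTTCCCGC and TTTGCCGC. TTTCGCGC and TTTGGCGC can overlap each other on opposite strands, as they do in Mcm5 and Mcm6. Of the members' 33 windows, 7 (21.2%) held a match, in Cdc6, Mcm5, Mcm6, Mcm7, Pola1, Rfc3 and Uhrf1, against 611 of 32851 windows (1.86%) over all genes in the promoter table. A list of 62 other replication genes had a match in 11 of 56 windows (19.6%), and a list of 31 G2 and mitosis genes in 1 of 30 (3.33%). The sequences below are those of Ccne1 and Rrm2, which rose most with TGF-beta under control siRNA, of Mcm5 and Mcm6, which hold the overlapping match, of Cdt1, which fell, and 30 bases around the match of Cdc6 and of Uhrf1, whose windows lie inside the gene as the deposited table places it. Each is written 5′ to 3′ on the gene's strand, with matches in capitals.
Ccne1, chr7:38107535-38107740 (minus strand): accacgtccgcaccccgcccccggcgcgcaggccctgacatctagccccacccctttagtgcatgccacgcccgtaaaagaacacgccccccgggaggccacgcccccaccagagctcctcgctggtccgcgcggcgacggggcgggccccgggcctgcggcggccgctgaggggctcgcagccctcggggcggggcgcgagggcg
Rrm2, chr12:24708004-24708240 (plus strand): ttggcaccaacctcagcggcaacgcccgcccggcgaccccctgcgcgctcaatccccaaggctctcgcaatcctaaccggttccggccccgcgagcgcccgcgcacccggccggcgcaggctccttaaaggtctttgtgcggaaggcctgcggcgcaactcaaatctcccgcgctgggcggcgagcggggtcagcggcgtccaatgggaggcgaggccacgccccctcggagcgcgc
Mcm5, chr8:75109259-75109508 (plus strand): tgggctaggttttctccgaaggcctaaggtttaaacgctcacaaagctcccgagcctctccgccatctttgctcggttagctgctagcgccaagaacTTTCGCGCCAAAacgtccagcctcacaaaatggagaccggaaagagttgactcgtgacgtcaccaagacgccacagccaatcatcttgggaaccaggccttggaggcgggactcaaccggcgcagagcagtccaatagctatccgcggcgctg
Mcm6, chr1:128359706-128359955 (minus strand): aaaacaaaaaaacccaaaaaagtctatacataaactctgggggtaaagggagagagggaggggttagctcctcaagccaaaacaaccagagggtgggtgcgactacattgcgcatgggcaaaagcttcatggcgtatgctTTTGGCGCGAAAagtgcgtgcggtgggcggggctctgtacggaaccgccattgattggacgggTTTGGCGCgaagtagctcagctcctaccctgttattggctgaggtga
Cdt1, chr8:122567765-122568014 (plus strand): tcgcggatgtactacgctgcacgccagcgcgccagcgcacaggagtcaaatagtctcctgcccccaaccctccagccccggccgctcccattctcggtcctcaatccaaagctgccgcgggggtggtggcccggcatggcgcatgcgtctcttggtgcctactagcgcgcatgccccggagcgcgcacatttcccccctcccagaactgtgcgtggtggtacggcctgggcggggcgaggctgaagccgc
Cdc6, chr11:98908002-98908031 (plus strand, the match reading on the minus strand): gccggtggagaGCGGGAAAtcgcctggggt
Uhrf1, chr17:56304117-56304146 (plus strand): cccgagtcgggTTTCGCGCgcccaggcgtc
The windows of Ccne1, Rrm2 and Cdt1 held none of the 4 forms, which says only that these letters are not in those 250 bases. The stretches printed for Ccne1 and Rrm2 are 206 and 237 of the 250 bases searched. They stop at the edge of the gene as the deposited table places it.

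Libraries held 19617874 to 30759317 counts, 15494 genes passed the low-count filter and were tested, and all 34 members were among them, the lowest member count in any library being 204. Changes are log2 ± SE from edgeR's quasi-likelihood test with Benjamini-Hochberg adjustment over all genes tested, called at an adjusted p under 0.05, and levels are counts scaled to TMM-adjusted library size (CPM), given for replicate 1 and then replicate 2. The siRNA targets fell as labelled: without TGF-beta, Prmt1 was at 173 and 143 CPM with control siRNA and at 74.5 and 77.1 with PRMT1 siRNA (-1.06 ± 0.16, adjusted p = 0.00256), and Trp53 went from 145 and 128 CPM to 55.4 and 54.2 with p53 siRNA (-1.32 ± 0.09, adjusted p = 8.85e-05). With both siRNAs Prmt1 was at 78.3 and 67.9 CPM, and Trp53 at 88.1 and 90.7 CPM, or 65.5% of control against 40.2% with p53 siRNA alone. The fall of Trp53 was thus -0.61 ± 0.09 (adjusted p = 0.00442) with both, and the difference in its p53 siRNA effect between cells with and without PRMT1 siRNA did not pass (0.65 ± 0.13, adjusted p = 0.221). Epicardial and mesothelial markers (14 genes) summed to 2403 to 2472 CPM with control siRNA and to 555 to 564 with TGF-beta added, while 6 endothelial, 6 cardiomyocyte and 6 haematopoietic markers each summed to under 10 CPM in every library. Of the 14, Tbx18, Krt18 and Krt8 rose to 121%, 109% and 187% of their untreated level with control siRNA, and the others fell. Krt8 was scarce, at a mean of 0.56 CPM without and 1.04 with TGF-beta. One library stood apart, the second of p53 siRNA plus TGF-beta: over all tested genes it differed from its partner by 0.805 (log2, root mean square), against 0.341 to 0.426 in the other 7 groups. Among the members the median absolute log2 difference between its 2 libraries was 0.249, against 0.03 to 0.094 in the other groups. The members furthest below their partner in it were Pola1 (52.3 against 80.0 CPM, longest transcript 5346 bases) and Pole (60.4 against 88.8, 7163 bases), and those furthest above were Tk1 (92.1 against 60.4, 1440 bases) and Chaf1b (88 against 59.2, 1922 bases). Length did not order all members: Chaf1a (5535 bases) was at 76.0 against 72.4 CPM and Gins2 (3900 bases) at 60.35 against 45.45. All groups share 1 estimate of the spread, so this library touches every test, and counts of calls are given for 16 libraries and, where they differ by over 1.5 times or in kind, for 15 libraries without it.

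The members spanned mean levels from 13.2 CPM for Gins1 to 283 CPM for Rrm1. Per kilobase of the longest annotated transcript, Pcna, the sliding clamp, was the most abundant at 113 CPM per kb and Cdc6 the least at 5.97. The 6 subunits of the MCM helicase lay close together on this scale, from 36.3 CPM per kb for Mcm5 to 59.7 for Mcm6, with Mcm2 at 56.8, Mcm4 at 48.5, Mcm3 at 46.8 and Mcm7 at 44.5. Ribonucleotide reductase subunits Rrm1 and Rrm2 were at 70.7 and 55.3 CPM per kb, and the cyclins Ccne1 and Ccne2 at 8.99 and 8.71. The authors' annotation and the isoforms present were not known, so small differences between genes on this scale carry no weight.

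**Figure D1:**
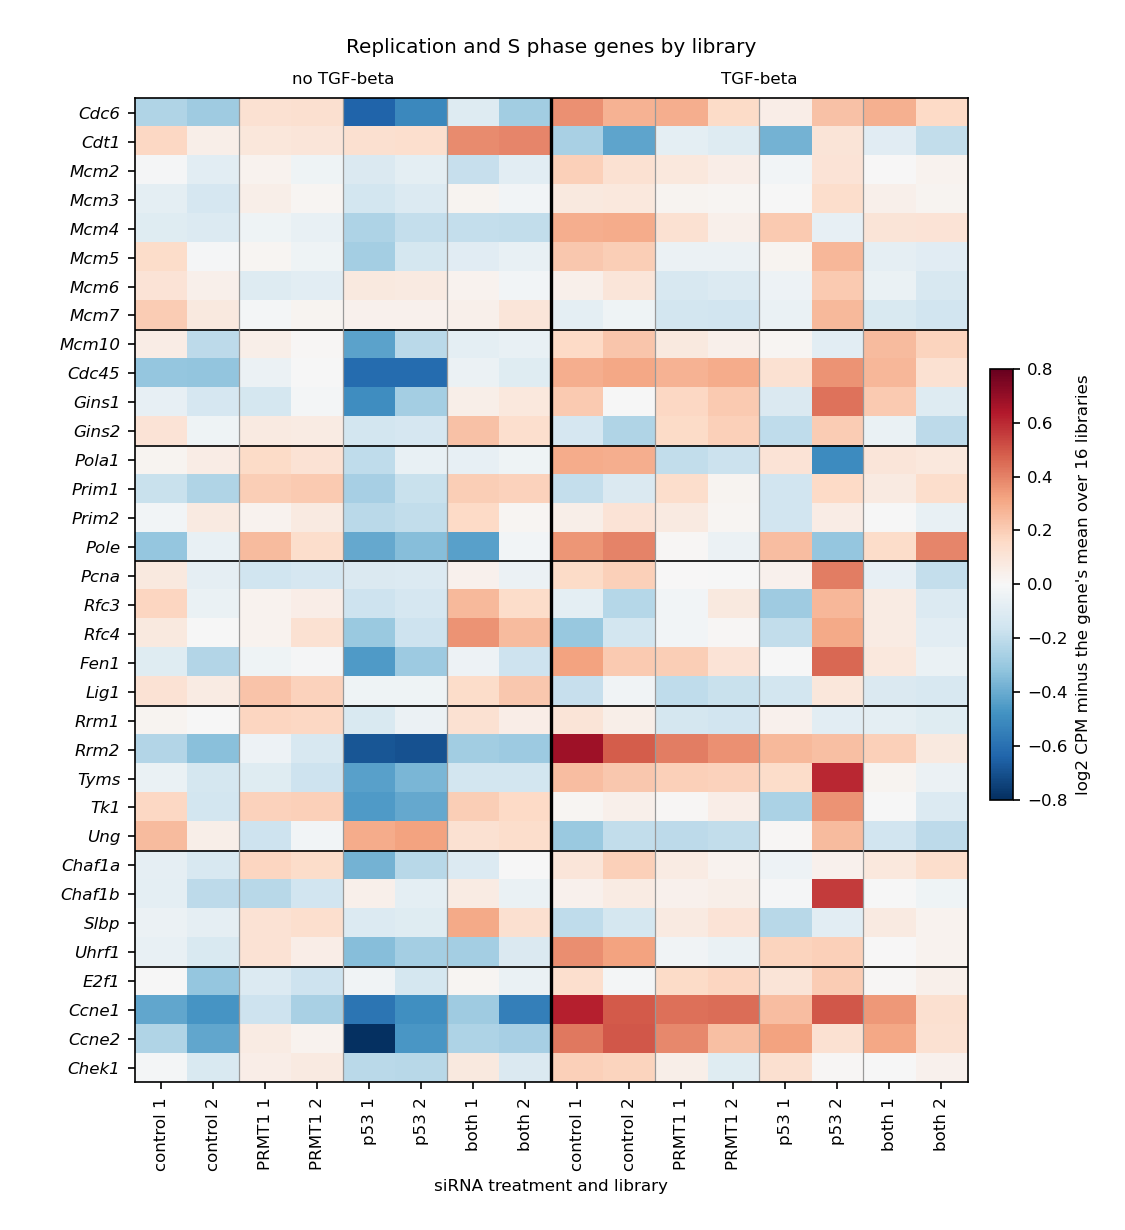
Level of each of the 34 members (rows, grouped by role) in each of the 16 libraries (columns), as log2 CPM minus the gene's mean over the libraries. Blue is below and red above the gene's mean; the untreated p53 siRNA columns are the bluest for Rrm2, Cdc45, Cdc6 and Ccne2, and the second TGF-beta-treated p53 siRNA library differs from its partner.

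Across the 8 groups the members moved within a narrow range. The ratio of the highest to the lowest group mean ran from 1.16 for Mcm3 to 2.42 for Rrm2, with a median of 1.40 against 1.74 over all tested genes, and passed 2 in Rrm2, Ccne2 (2.17) and Ccne1 (2.13). Summed over the 34 members, the level was lowest with p53 siRNA and no TGF-beta (2476 and 2553 CPM) and was 3119 and 3089 CPM with control siRNA and TGF-beta. The other untreated libraries summed to 2668 to 2879 CPM, and the other treated ones to 2773 to 3137, the last value being that of the library that stood apart. Untreated p53 siRNA had the lowest group mean for 20 of 34 members (58.8%), a place it held for 18.8% of all tested genes. Control siRNA with TGF-beta had the highest group mean for 14 members (41.2%), against 18.1% of all tested genes, and for 17 (50.0%, against 16.9%) without the library that stood apart. These places in the order are descriptions and were not tested as such.

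With control siRNA, TGF-beta raised 3 of 4 S phase entry and checkpoint genes, 4 of 8 licensing genes, 2 of 4 chromatin genes and 2 of 5 nucleotide genes, and lowered the licensing factor Cdt1 and the uracil glycosylase Ung. At the fork it raised 1 of 4 helicase activation genes, 1 of 4 polymerase and primase genes and 1 of 5 clamp, loader and lagging strand genes, the last group having a median log2 change of -0.19. Of the 34 members 14 rose and 2 fell, where 17.8% of all tested genes rose and 20.6% fell, and the members' median log2 change was 0.20 against -0.01 over all tested genes. With 15 libraries 18 rose and 7 fell, where 24.8% of tested genes rose and 27.5% fell. The other 18 members passed in neither direction with 16 libraries.

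Among the S phase entry genes, the cyclin E genes changed most. Ccne1, the partner of Cdk2 at the start of S phase, was at 12.9 and 12.4 CPM without and 26.5 and 24.2 CPM with TGF-beta (0.997 ± 0.12, adjusted p = 4.04e-05). The other cyclin E gene, Ccne2, went from 21.5 and 19.1 to 34.0 and 35.8 CPM (0.78 ± 0.13, adjusted p = 0.000448). In both genes the treated libraries lay well above the untreated ones. Chek1, the kinase that guards stalled forks, rose by less (0.25 ± 0.09, adjusted p = 0.0335), and E2f1, at 34.3 and 27.7 CPM without and 37.7 and 33.9 with TGF-beta, overlapped between groups and did not pass (0.21 ± 0.10, adjusted p = 0.128).

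In licensing, Cdc6 and Cdt1, which act together to load the helicase, moved in opposite directions. Cdc6 was at 22.9 and 22.2 CPM without and 34.8 and 32.7 CPM with TGF-beta (0.58 ± 0.09, adjusted p = 0.000421). Cdt1 was at 84.8 and 78.1 CPM without and 63.1 and 56.3 CPM with TGF-beta (-0.45 ± 0.13, adjusted p = 0.0141). Neither gene's groups overlapped, and the share of all tested genes whose groups separate is not given. The MCM subunits, which work as a single ring, did not change equally: Mcm4 rose from 162 and 161 to 212 and 213 CPM (0.40 ± 0.08, adjusted p = 0.00239), and Mcm2 (0.21 ± 0.07) and Mcm3 (0.18 ± 0.07) rose with adjusted p-values of 0.0383 and 0.0443. Mcm5 (0.13 ± 0.09), Mcm6 (-0.004 ± 0.082) and Mcm7 (-0.20 ± 0.09) did not pass, with adjusted p-values of 0.265, 0.978 and 0.113; the promoters of Mcm5 and Mcm6 are among those printed above.

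Of the helicase activators, Cdc45, which joins MCM2-7 and GINS in the active helicase, went from 29.8 and 29.7 to 45.2 and 45.9 CPM (0.61 ± 0.08, adjusted p = 0.000109). Gins1 (0.20 ± 0.17), Gins2 (-0.23 ± 0.12) and the scaffold protein gene Mcm10 (0.25 ± 0.10) did not pass, with adjusted p-values of 0.378, 0.145 and 0.0566. Pole, the catalytic subunit of the leading strand polymerase, was at 60.5 and 71.8 CPM without and 95.6 and 98.6 CPM with TGF-beta (0.55 ± 0.17, adjusted p = 0.0255). Polymerase alpha and primase (Pola1, Prim1, Prim2) had log2 changes of 0.05 to 0.25 and none passed. Fen1, which trims Okazaki fragment flaps, rose from 47.2 and 43.0 to 63.2 and 58.5 CPM (0.43 ± 0.13, adjusted p = 0.0206). Pcna (0.17 ± 0.11, adjusted p = 0.250), the clamp loader genes Rfc3 and Rfc4 and the ligase Lig1 did not pass, and the last 3 had negative log2 values (-0.22, -0.26 and -0.19).

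In nucleotide supply, Rrm2 changed most. It encodes the S phase subunit of ribonucleotide reductase and was at 99.4 and 92.8 CPM without and 187 and 164 CPM with TGF-beta (0.87 ± 0.08, adjusted p = 4.06e-06). Its partner subunit Rrm1, at 287 and 281 without and 303 and 291 CPM with TGF-beta, did not pass (0.06 ± 0.07, adjusted p = 0.493). Thymidylate synthase Tyms rose (0.33 ± 0.11, adjusted p = 0.0403) and thymidine kinase Tk1 did not pass (0.01 ± 0.16, adjusted p = 0.963). Ung, which removes uracil from DNA, fell from 24.7 and 21.4 to 16.9 and 18.1 CPM (-0.40 ± 0.10, adjusted p = 0.00799).

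Of the chromatin genes, Uhrf1, which brings the maintenance DNA methyltransferase to newly copied DNA, rose from 116 and 112 to 157 and 151 CPM (0.43 ± 0.07, adjusted p = 0.000421). The large subunit of the histone chaperone CAF-1, Chaf1a, rose by 0.24 ± 0.08 (adjusted p = 0.0240). Its partner Chaf1b (0.19 ± 0.14, adjusted p = 0.313) and the histone mRNA binding protein gene Slbp (-0.11 ± 0.07, adjusted p = 0.265) did not pass. Leaving out any 1 of the 4 libraries kept the calls of Ccne1, Ccne2, Rrm2, Cdc6, Cdc45, Uhrf1 and Mcm4, so that 7 of the 16 calls rested on no single library. Chek1, Mcm2, Mcm3 and Tyms lost theirs without any 1 of the 4, and Cdt1, Ung, Fen1, Pole and Chaf1a without 2 or 3 of them.

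**Figure D2:**
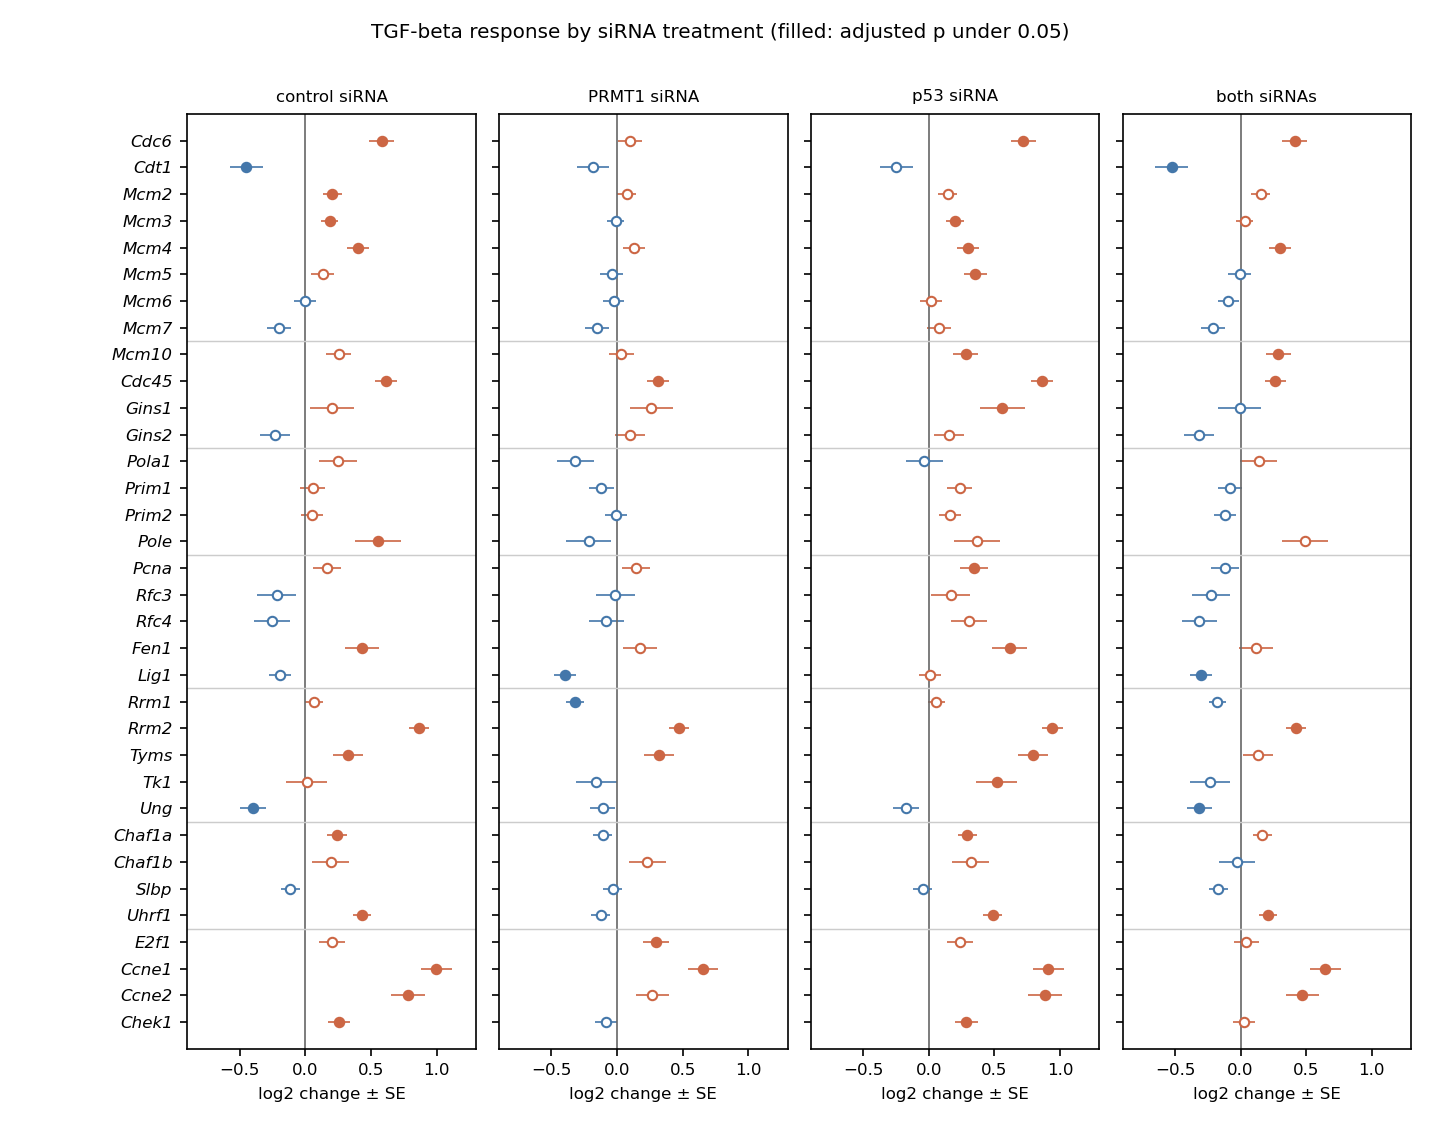
Log2 change with TGF-beta (x axis, ± SE, n = 2 libraries per group) of the 34 members in each siRNA treatment, with 16 libraries. Filled points passed an adjusted p under 0.05; Ccne1, Rrm2 and Cdc45 are filled and to the right of 0 in all 4 panels, and the points under p53 siRNA include the library that stood apart.

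With PRMT1 siRNA, TGF-beta raised Ccne1 and Rrm2 and lowered Lig1 and Rrm1. Of the 34 members 5 rose and 2 fell, against 16.3% and 16.2% of all tested genes, and their median log2 change was -0.01. The risers were Ccne1 (0.66 ± 0.12), Rrm2 (0.47 ± 0.08), Tyms (0.32 ± 0.11), Cdc45 (0.31 ± 0.08) and E2f1 (0.30 ± 0.10). Ccne1 was at 15.3 and 14.4 CPM without and 23.4 and 23.4 with TGF-beta, and Rrm2 at 114 and 107 without and 155 and 151 with it. The fallers were Lig1, which seals the lagging strand (-0.39 ± 0.08, adjusted p = 0.00343), and Rrm1 (-0.32 ± 0.07, adjusted p = 0.00353). Rrm1 was at 318 and 317 CPM without and 255 and 254 with TGF-beta, so the 2 subunits of ribonucleotide reductase moved in opposite directions in these cells. Cdc6 (0.10) and Uhrf1 (-0.12) had log2 values near 0 and did not pass. With 15 libraries 8 members rose and 5 fell, where 25.7% and 25% of tested genes did, and 21 were called when only the 2 groups were fitted. The calls of Ccne1, Rrm2, Lig1 and Rrm1 held without any 1 of the 4 libraries, and those of Cdc45, Tyms and E2f1 were lost without any 1 of them.

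With p53 siRNA 17 members rose and none fell, against 23.3% and 22% of all tested genes, with a median log2 change of 0.29 against 0.02. Rrm2 went from 72.9 and 72.1 to 140.1 and 138 CPM (0.94 ± 0.08, adjusted p = 1.75e-06), Cdc45 from 24.1 and 24.1 to 40.3 and 47.5 (0.86 ± 0.08, adjusted p = 5.90e-06) and Ccne2 from 13.8 and 18.4 to 31.7 and 27.7 (0.88 ± 0.13, adjusted p = 0.000173). Cdc6 (0.72 ± 0.10), Ccne1 (0.91 ± 0.12), Tyms (0.79 ± 0.12), Fen1 (0.61 ± 0.13) and Uhrf1 (0.49 ± 0.07) also rose. These 8 calls held without any 1 of the 4 libraries. Without the library that stood apart, 15 members rose and 2 fell (Cdt1 at -0.51 and Ung at -0.30), where 22.7% and 23.5% of tested genes did, and the median was 0.18. In that fit Mcm3 (0.13, adjusted p = 0.101), Gins1 (0.26, adjusted p = 0.177), Pcna (0.14, adjusted p = 0.133) and Tk1 (0.18, adjusted p = 0.167) lost their calls, and Pola1 and Pole gained them. When only the 2 groups were fitted 4 members were called. No share of all tested genes is given for this fit, nor for the like fit with PRMT1 siRNA above. Leaving out untreated p53 siRNA replicate 1 ended the calls of Chaf1a, Chek1, Mcm4, Mcm5, Mcm10, Gins1, Mcm3, Pcna and Tk1.

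With both siRNAs 8 members rose and 3 fell, against 15% and 16.3% of all tested genes, with a median of 0.01. Ccne1 (14.2 and 11.8 to 21.9 and 18.8 CPM, 0.65 ± 0.12, adjusted p = 0.00123) and Rrm2 (96.4 and 95.6 to 134 and 124 CPM, 0.42 ± 0.08, adjusted p = 0.00149) kept their calls without any 1 of the 4 libraries. Ccne2 (0.47), Cdc6 (0.41), Mcm4 (0.30), Mcm10 (0.29), Cdc45 (0.27) and Uhrf1 (0.21) rose, and Cdt1 (-0.53), Ung (-0.31) and Lig1 (-0.30) fell, each losing its call without at least 1 library. With 15 libraries the count was 11 up and 10 down, where 23.5% and 23.9% of tested genes were called in each direction. The TGF-beta comparisons of the 4 siRNA treatments share no library, but they share 1 estimate of the spread. Ccne1, Rrm2 and Cdc45 were called upward in all 4, and no member was called downward in all 4. The share of all tested genes called in all 4 is not given here, so these counts are descriptions. Leaving out 1 library at a time, the Cdc45 call held in 0 of 4 fits under PRMT1 siRNA and in 1 of 4 under both.

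**Figure D3:**
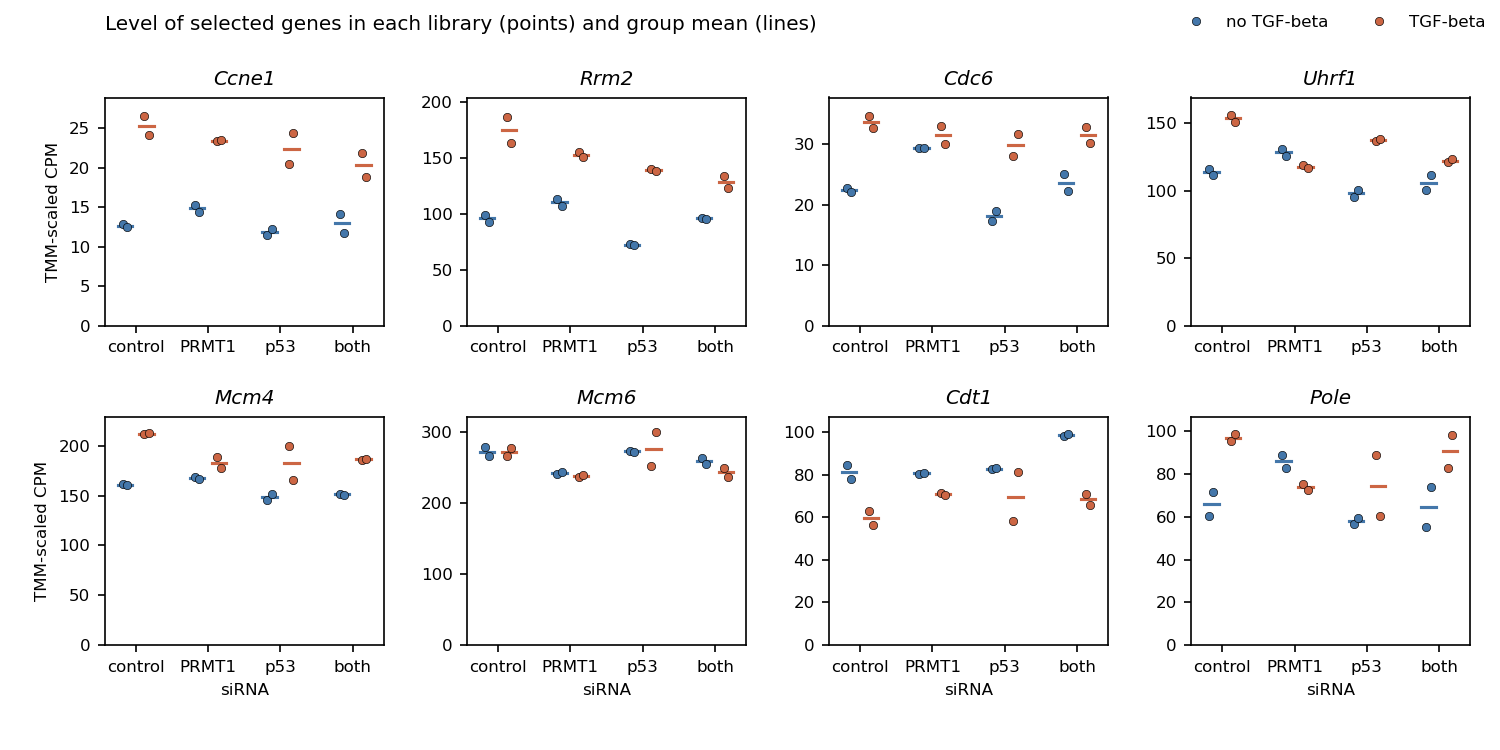
Level in TMM-scaled CPM (y axis, from 0) of 8 members in each library (points) with the group mean (line), by siRNA treatment (x axis), without and with TGF-beta (colours). Ccne1 and Rrm2 are higher with TGF-beta under every siRNA, while Uhrf1 is higher with control siRNA (157 and 151 against 116 and 112 CPM) and lower under PRMT1 siRNA (119 and 117 against 131 and 126 CPM).

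Whether an siRNA changed the TGF-beta response was tested as an interaction. PRMT1 siRNA changed the response of Uhrf1: it rose with control siRNA, and under PRMT1 siRNA it was at 131 and 126 CPM without and 119 and 117 CPM with TGF-beta, a difference between responses of -0.56 ± 0.10 (log2, adjusted p = 0.0167). This was the only member called, where 1.3% of all tested genes had a higher and 0.781% a lower response. The call was lost without any 1 of the 8 libraries in the contrast (adjusted p 0.0546 to 0.114) and held in the fit of 15 libraries (-0.55, adjusted p = 0.000544). The estimate was below 0, called or not, in 24 of 34 members and in 7347 of 15494 tested genes, and the median difference was -0.18, against 0.03 over all tested genes. The lowest values after Uhrf1 in adjusted p were Rrm1 (-0.38 ± 0.09, adjusted p = 0.0637), Cdc6 (-0.48 ± 0.13, adjusted p = 0.0848) and Rrm2 (-0.40 ± 0.11, adjusted p = 0.0913), none of which passed. With 15 libraries 11 members were called with a lower and 2 with a higher response, where 13.3% and 17.3% of all tested genes did. Those lower were Pole (-0.76), Pola1 (-0.56), Uhrf1, Ccne2 (-0.51), Cdc6 (-0.47), Rrm2 (-0.39), Rrm1 (-0.37), Chaf1a (-0.34), Chek1 (-0.33), Cdc45 (-0.29) and Mcm4 (-0.26), and those higher were Gins2 (0.34) and Cdt1 (0.28). Ccne1 was in neither fit's calls (-0.34 ± 0.17 with 16 libraries, adjusted p = 0.256).

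For p53 siRNA no member's TGF-beta response differed from that with control siRNA with either 16 or 15 libraries in edgeR, where 4 and 2 members had an unadjusted p under 0.05, and DESeq2 also called none; 0.452% of tested genes had a higher and 0.568% a lower response with 16 libraries, and 0.981% and 1.26% with 15. The interaction of the 2 siRNAs called no member with 16 libraries in edgeR, without TGF-beta (2 members at an unadjusted p under 0.05, DESeq2 0, and no tested gene called) or with it (7 members, DESeq2 1, and 0.452% of tested genes higher and 0.31% lower). With 15 libraries it was positive without TGF-beta for Rfc4 (0.53), Tk1 (0.46) and Tyms (0.31), where 5.64% of tested genes were called upward and 3.6% downward. With TGF-beta it was positive for Pola1 (0.47), where 1.47% were called upward and 0.845% downward. All shares in this paragraph are by adjusted p in edgeR. The counts at an unadjusted p and with DESeq2 have no such share and are not read as a result about the members.

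The effects of each siRNA against control siRNA share the control libraries, so their values are set side by side and not counted as separate evidence. Without TGF-beta, PRMT1 siRNA raised Prim1, the catalytic primase subunit, from 40.4 and 38.7 to 52.3 and 52.8 CPM (0.41 ± 0.09, adjusted p = 0.0179), Cdc6 from 22.9 and 22.2 to 29.4 and 29.5 CPM (0.39 ± 0.09, adjusted p = 0.0244) and Cdc45 from 29.8 and 29.7 to 35.9 and 37.0 CPM (0.29 ± 0.08, adjusted p = 0.0468). The groups of these 3 genes did not overlap, but the share of all tested genes whose groups separate is not given. Each of the 3 calls was lost whichever of the 4 libraries was left out. No member fell, 4.48% of all tested genes rose and 5.85% fell, and the members' median was 0.09. With 15 libraries 6 members rose (adding Pole, Chaf1a and Ccne2) and 3 fell (Mcm6, Mcm7 and Ung), against 11% and 15.4% of tested genes.

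With TGF-beta, Uhrf1, Pola1 and Rrm1 were lower with PRMT1 siRNA than with control siRNA. Uhrf1 was at 157 and 151 CPM with control and 119 and 117 CPM with PRMT1 siRNA (-0.39 ± 0.07, adjusted p = 0.00489). Pola1, the polymerase alpha catalytic subunit, was at 91.0 and 90.4 CPM with control and 64.6 and 65.8 CPM with PRMT1 siRNA (-0.48 ± 0.14, adjusted p = 0.0438), and Rrm1 was lower by a smaller amount (-0.22 ± 0.07, adjusted p = 0.0461). Slbp was the 1 member that rose (0.26 ± 0.07, adjusted p = 0.0357). Of all tested genes 9.13% rose and 6.53% fell, and the members' median was -0.09. With 15 libraries 10 members fell, among them Pole, Mcm4, Mcm5, Mcm6 and Rrm2, and 4 rose, against 20.1% and 21.2% of tested genes.

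p53 siRNA without TGF-beta gave the lowest level of most members, by small amounts. Rrm2 fell from 99.4 and 92.8 to 72.9 and 72.1 CPM (-0.41 ± 0.08, adjusted p = 0.0221) and was the 1 member called, where 1.29% of all tested genes fell and 1.17% rose. The log2 value was below 0 in 29 of 34 members, with a median of -0.18 against 0.01 over all tested genes. All members were measured in the same libraries, so these signs are not separate evidence and were not tested as a set. Tk1 (-0.45 ± 0.16, adjusted p = 0.201), Cdc6 (-0.31 ± 0.10, adjusted p = 0.135), Tyms (-0.30 ± 0.11, adjusted p = 0.244) and Cdc45 (-0.30 ± 0.08, adjusted p = 0.0998) did not pass with 16 libraries. With 15 libraries 11 members fell and none rose, against 6.56% and 5.09% of tested genes: Tk1 (-0.46), Rrm2 (-0.42), Cdc6 (-0.33), Tyms (-0.32), Cdc45 (-0.32), Mcm5 (-0.29), Rfc4 (-0.28), Prim2 (-0.25), Uhrf1 (-0.23), Chaf1a (-0.21) and Pola1 (-0.18). Cdt1 (82.5 and 83.0 against 84.8 and 78.1 CPM) and Mcm6 (274 and 272 against 279 and 267 CPM) overlapped with control.

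With TGF-beta, Rrm2 was again the 1 member that fell with p53 siRNA, from 187 and 164 to 140.1 and 138 CPM (-0.33 ± 0.08, adjusted p = 0.0344), where 2.39% of all tested genes fell and 2.82% rose. Its call was lost without control siRNA with TGF-beta replicate 1. The members' median was -0.02 with 16 and -0.13 with 15 libraries, and Rrm2 stayed the only call in the latter, where 2.25% of tested genes fell and 1.86% rose. With both siRNAs, Prim1 rose without TGF-beta (52.3 and 52.0 against 40.4 and 38.7 CPM, 0.40 ± 0.09, adjusted p = 0.0360), where 2.31% of tested genes rose and 2.14% fell. With TGF-beta, both siRNAs lowered Rrm2 (134 and 124 against 187 and 164 CPM, -0.45 ± 0.08, adjusted p = 0.00363) and Uhrf1 (121 and 123 against 157 and 151 CPM, -0.33 ± 0.07, adjusted p = 0.0102), where 5.35% of tested genes fell and 7.71% rose. With 15 libraries the counts for both siRNAs were 5 up and 0 down without TGF-beta and 3 up and 11 down with it, against 8.56%, 10.1%, 15.7% and 14.2% of tested genes. Of the members' 12 calls in these comparisons with control siRNA, 8 were lost whichever of the 4 libraries was left out: Prim1 with PRMT1 siRNA and with both, Cdc6 and Cdc45, Rrm2 with untreated p53 siRNA, and Pola1, Rrm1 and Slbp with PRMT1 siRNA and TGF-beta. With TGF-beta, the call of Uhrf1 under PRMT1 siRNA was lost without that group's replicate 2. Under both siRNAs and TGF-beta, that of Rrm2 was lost without replicate 2 of that group or replicate 1 of its control, and that of Uhrf1 without any of the 4 libraries but the control's replicate 2.

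**Figure D4:**
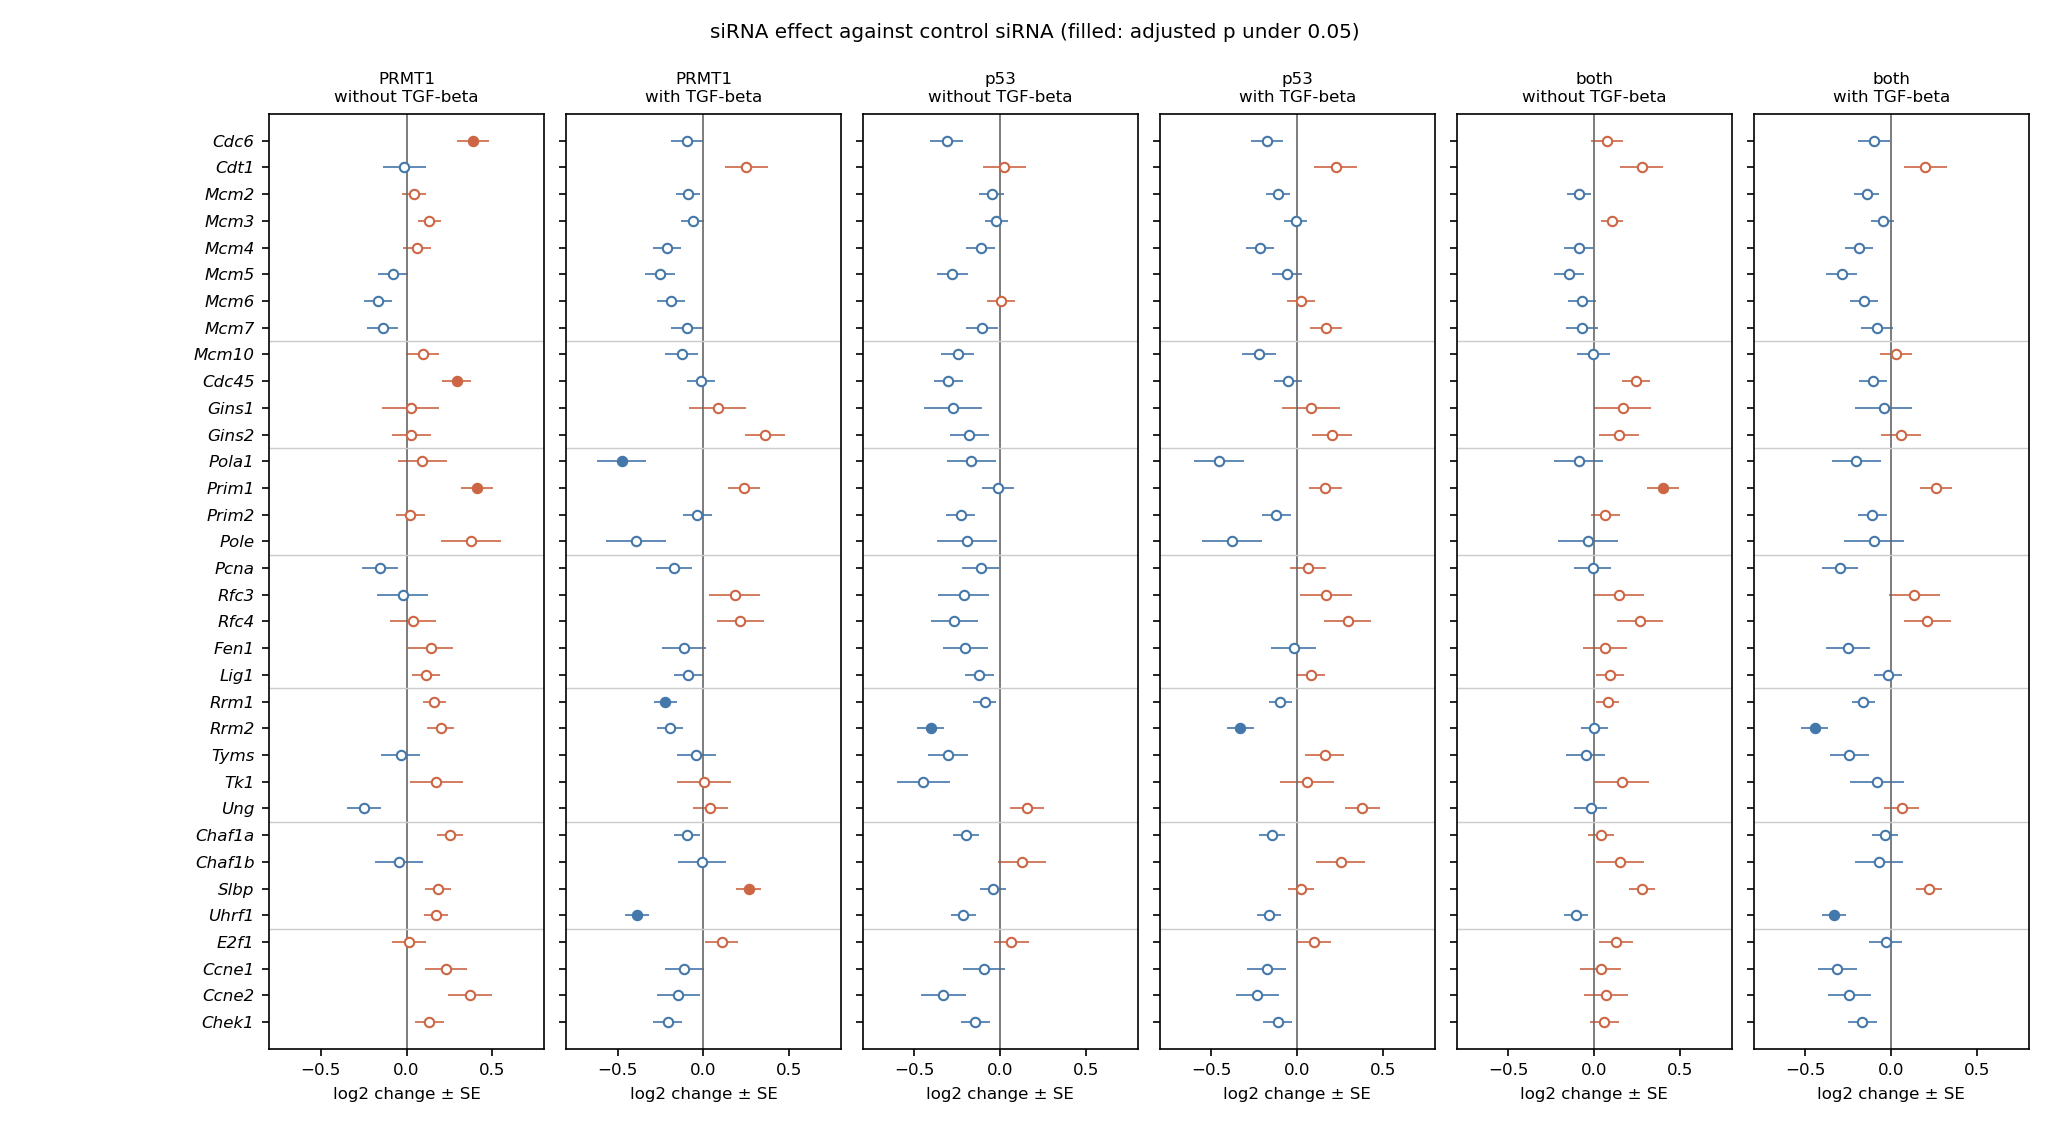
Log2 difference from control siRNA (x axis, ± SE, n = 2 libraries per group) of the 34 members for each siRNA treatment without and with TGF-beta, with 16 libraries. Filled points passed an adjusted p under 0.05; Rrm2 is filled and below 0 with p53 siRNA in both conditions, and Prim1 is filled and above 0 without TGF-beta with PRMT1 siRNA and with both siRNAs.

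Adding p53 siRNA to PRMT1 siRNA called no member without or with TGF-beta in edgeR with 16 libraries, where 8 and 2 members had an unadjusted p under 0.05, and DESeq2 called 1 and 0. Of all tested genes 0.568% rose and 0.297% fell without TGF-beta, and 0.219% and 0.232% with it, by adjusted p in edgeR. No share is given for an unadjusted p or for DESeq2, so those counts are not read as a result about the members. Cdc6, raised by PRMT1 siRNA alone to 29.4 and 29.5 CPM, was at 25.1 and 22.2 with both siRNAs. Prim1 was at 52.3 and 52.8 CPM with PRMT1 siRNA and 52.3 and 52.0 with both. With 15 libraries Pole (-0.41), Cdc6 (-0.30), Uhrf1 (-0.27), Chaf1a (-0.20) and Pola1 (-0.17) were lower, and Cdt1 (0.30), Rfc4 (0.24), Ung (0.24) and Chaf1b (0.21) higher, with both siRNAs than with PRMT1 siRNA alone in untreated cells, where 9.83% of tested genes were lower and 11.8% higher. With TGF-beta in that fit Gins2 (-0.29), Rrm2 (-0.24) and Tyms (-0.19) were lower and Pola1 (0.28) higher, against 6.45% and 5.74% of tested genes.

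Other genes of the pathway gave the setting. Of 62 further replication genes, TGF-beta with control siRNA raised 19 and lowered 5 (26 and 9 with 15 libraries), led upward by the origin recognition subunit Orc2 (0.69), the origin firing factor Mtbp (0.64) and the phosphatase Cdc25a (0.51), and downward by the polymerase delta subunit Pold4 (-1.26), the mismatch repair gene Msh6 (-0.29) and the single-strand binding protein gene Rpa1 (-0.28). With PRMT1 siRNA it raised 5 and lowered 11 of the 62 (6 and 19 with 15 libraries), with p53 siRNA 28 and 3 (30 and 5) and with both 9 and 4 (17 and 13). Of 31 G2 and mitosis genes, TGF-beta raised 9 and lowered 1 with control siRNA (17 and 2 with 15 libraries), 2 and 8 with PRMT1 siRNA (4 and 12), 22 and 0 with p53 siRNA (29 and 0) and 7 and 0 with both (10 and 3). Over all tested genes the shares raised and lowered were 17.8% and 20.6% with control siRNA, 16.3% and 16.2% with PRMT1 siRNA, 23.3% and 22% with p53 siRNA and 15% and 16.3% with both, with 16 libraries. With 15 libraries these shares were 24.8% and 27.5%, 25.7% and 25%, 22.7% and 23.5%, and 23.5% and 23.9%, in the same order.

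In untreated cells p53 siRNA lowered 13 of the 31 G2 and mitosis genes and 5 of the 62 replication genes, with medians of -0.38 and -0.18, where 1.29% of all tested genes fell. With 15 libraries it lowered 29 and 22, where 6.56% of all tested genes fell, and it raised none of either list in either fit. PRMT1 siRNA raised 7 of the 31 and lowered 0, and raised 8 of the 62 and lowered 1, where 4.48% of all tested genes rose and 5.85% fell. With 15 libraries these counts were 12 and 1 and 19 and 2, where 11% rose and 15.4% fell.

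Regulators upstream of the members had the following values, and their part in the results was not tested. Cdkn1a was at 29.0 and 27.1 CPM with control siRNA, rose to 86.1 and 79.5 with PRMT1 siRNA (1.56 ± 0.07, adjusted p = 1.82e-06), fell to 9.03 and 9.20 with p53 siRNA (-1.62 ± 0.08, adjusted p = 2.74e-06) and was at 37.6 and 36.6 with both. TGF-beta raised it under every siRNA, to 55.5 and 55.3 CPM with control siRNA (0.98 ± 0.07, adjusted p = 6.05e-07). With control siRNA, TGF-beta also raised the repressor E2f7 (17.3 and 19.7 to 40.2 and 39.6 CPM, 1.11 ± 0.19, adjusted p = 0.000637), the activator E2f3 (0.49 ± 0.09, adjusted p = 0.000951) and the pocket protein gene Rb1 (0.71 ± 0.12, adjusted p = 0.000632), and lowered Rbl2 (-0.62 ± 0.19, adjusted p = 0.0208). E2f4, E2f2, E2f8 and Rbl1 did not pass in that comparison.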

How the data were processed

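Poly(A)-enriched RNA of MEC1 cells was sequenced in 16 libraries, grouped by their titles into 8 groups of 2. The values deposited are expected counts, 1 row per gene; TopHat2, Partek and mm10 are named in the submitters' processing notes, while versions, annotation and strand handling are not given in the sources used here. Values above 0 were whole to within 0.01 in 60.0% of cases, and all were rounded. In R 4.3.3, edgeR 4.0.16 fitted 1 mean per group to all 16 libraries after TMM scaling and filterByExpr, and 16 comparisons were tested with the quasi-likelihood F test. Adjusted p-values in the text are edgeR's unless DESeq2 is named. The common biological coefficient of variation was 0.114, or 0.0604 with 15 libraries, for which 16103 genes were tested.

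The members and the other gene lists were chosen with earlier results of these data known. Any member could be named, as well as the siRNA targets, Cdkn1a, pocket protein and E2F genes, and per comparison and direction the 3 called genes of lowest adjusted p from the other replication genes; no G2 or mitosis gene is named. Alternatives were a replicate block, RLE factors, DESeq2 1.42.0, a fit of the compared groups alone, no filter, transcript length offsets (GENCODE vM21), 15 libraries, each library left out, and, chosen after seeing the data, length offsets with 15 libraries. On simulated data for PRMT1 siRNA against control without TGF-beta (15157 genes), genes recovered numbered 9 of 67 at a log2 change of 0.5, 58 of 67 at 1 and 65 of 66 at 2, beside 10 false calls. Promoter sequences are RefSeq's (GRCm38.p6).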

Additional observations from a re-analysis of the deposited data

Results flagged for a closer look

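Of the members and the other replication genes that could be named, 5 had a TGF-beta response that differed between siRNA treatments in edgeR's interaction test. Each rests on groups of 2 libraries. For PRMT1 siRNA they were 1 of 34 members, where 0.781% of all tested genes were lower, and 3 other replication genes, all lower. The naming rule allowed 3 such genes per direction and comparison, so this is not a count over all 62. For p53 siRNA they were 0 of 34 members and 1 of 62 other genes, higher, where 0.452% of all tested genes were higher. PRMT1 siRNA lowered the response of Uhrf1 (log2 difference between responses -0.56 ± 0.10, adjusted p = 0.0167), of the origin firing factor Mtbp (-0.52 ± 0.08, adjusted p = 0.00897), of the fork protein gene Wdhd1 (-0.74 ± 0.16, adjusted p = 0.0412) and of the S phase cyclin gene Ccna2 (-0.40 ± 0.09, adjusted p = 0.0460). Wdhd1 was at 36.7 and 36.7 CPM without and 45.3 and 47.8 CPM with TGF-beta under control siRNA, and at 47.2 and 48.6 without and 35.8 and 37.2 with it under PRMT1 siRNA. Ccna2 was at 141 and 135 against 164 and 163 CPM under control siRNA and at 150.1 and 149 against 134 and 134 under PRMT1 siRNA. In these 2 genes and in Uhrf1 the groups separate in opposite directions under the 2 siRNAs, while Mtbp was higher with TGF-beta under both (37.0 and 37.2 against 58.1 and 57.7 CPM, and 41.3 and 41.1 against 44.9 and 44.7). p53 siRNA raised the response of the helicase gene Recql4 (0.68 ± 0.14, adjusted p = 0.0410), which went from 8.21 and 8.04 to 15.7 and 18.2 CPM, against 11.7 and 12.3 to 15.7 and 15.5 with control siRNA. Leaving out each of the 8 libraries of the contrast in turn, the calls of Uhrf1, Wdhd1 and Ccna2 held in 0 of 8 fits, that of Mtbp in 1 and that of Recql4 in 2. All 5 kept their call with 15 libraries, with values of -0.55, -0.51, -0.73, -0.39 and 0.59 in the order given.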

How the results depend on the processing

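No named call changed direction under any alternative, and RLE factors left all 16 counts of called members within 1.5 times. The number of libraries, 2 per group, limits the precision, and the cause of the shifts below was not tested. Counts are members called of 34, in either direction. Shares of all tested genes are given only for the fits of 16 and 15 libraries. A shift in any other setting, or with 1 library left out, is therefore not read as a result about the members. In the TGF-beta responses, with control siRNA 16 became 25 with 15 libraries and with 15 libraries and length offsets. With PRMT1 siRNA 7 became 13 with 15 libraries, 16 with 15 libraries and length offsets, 12 with length offsets, 21 with only the groups compared and 4 with no filter. With p53 siRNA 17 became 4 with only the groups compared. With both siRNAs 11 became 21 with 15 libraries, 19 with 15 libraries and length offsets and 7 with no filter.

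PRMT1 siRNA against control without TGF-beta (3) gave 9 with 15 libraries, 16 with 15 libraries and length offsets, 5 with length offsets and 6 with only the groups compared. With TGF-beta (4) it gave 14, 15, 9 and 17 in that order, 9 with DESeq2 and 1 with the replicate block. p53 siRNA against control without TGF-beta (1) gave 11, 13, 5 and 2 in that order and 4 with DESeq2. With TGF-beta (1) it gave 4 with 15 libraries and length offsets, 6 with length offsets, 0 with only the groups compared, 3 with DESeq2 and 2 with no filter. Both siRNAs against control without TGF-beta (1) gave 5 with 15 libraries, 6 with 15 libraries and length offsets, 3 with length offsets, 2 with DESeq2 and 0 with the replicate block. With TGF-beta (2) they gave 14, 20 and 10 in the first 3 of these, 15 with only the groups compared, 5 with DESeq2 and 1 with no filter. p53 siRNA added to PRMT1 siRNA without TGF-beta (0) gave 9 with 15 libraries, 8 with 15 libraries and length offsets, 6 with only the groups compared, and 1 each with length offsets, DESeq2 and no filter. With TGF-beta (0) it gave 4 with 15 libraries, with or without length offsets, and 5 with only the groups compared.

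The PRMT1 siRNA by TGF-beta interaction (1) gave 13 with 15 libraries, 16 with 15 libraries and length offsets, 10 with length offsets, 13 with only the groups compared, 5 with DESeq2 and 3 with no filter. The p53 siRNA by TGF-beta interaction (0) gave 1 with no filter. The interaction of the siRNAs without TGF-beta (0) gave 3 with 15 libraries, with or without length offsets, and with TGF-beta (0) it gave 1 in these 2 settings, 1 with length offsets, 1 with DESeq2 and 3 with no filter.

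Leaving out 1 library at a time, the lone library being assumed to vary like the other groups, gave 9 to 10 calls for the TGF-beta response with control siRNA, 4 to 4 with PRMT1 siRNA, 8 to 26 with p53 siRNA and 3 to 5 with both. The siRNA effects gave 0 to 0 (PRMT1), 0 to 0 (p53) and 0 to 0 (both) without TGF-beta, and 0 to 1, 0 to 20 and 0 to 2 with it. The p53 siRNA by TGF-beta interaction gave 0 to 19, the interaction of the siRNAs with TGF-beta 0 to 18, and the other 4 comparisons 0 to 0. The values of 26, 20, 19 and 18 are those without p53_siRNA_TGFB replicate 1, when only the library that stands apart remains in its group.

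Replicate numbers were not taken to pair libraries: over 28 pairs of groups, same-numbered libraries deviated together with r from -0.401 to 0.246 (median -0.00239, 6 above 0.1). Under the replicate block 91 of 108 named calls were kept and 14 of 16 counts stayed within 1.5 times.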

Other observations

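Levels of Cdkn1a and the summed level of the members are given together by group. PRMT1 siRNA had the highest untreated Cdkn1a level (86.1 and 79.5 CPM) together with a summed member level of 2879 and 2851 CPM, next to 2820 and 2668 with control siRNA at 29.0 and 27.1 CPM of Cdkn1a. p53 siRNA had the lowest Cdkn1a level (9.03 and 9.20 CPM) together with the lowest summed member level (2476 and 2553 CPM). With TGF-beta, control siRNA had both a higher Cdkn1a level (55.5 and 55.3 CPM) and a higher sum (3119 and 3089 CPM) than without it. So did p53 siRNA, at 22.9 and 24.7 CPM of Cdkn1a and a sum of 2849 and 3137 CPM. PRMT1 siRNA with TGF-beta had the highest Cdkn1a level of all groups (101.8 and 107.5 CPM). Its sum was 2858 and 2826 CPM, which overlapped with the 2879 and 2851 CPM without TGF-beta. With both siRNAs, Cdkn1a went from 37.6 and 36.6 to 47.5 and 47.7 CPM. The sum there went from 2804 and 2784 to 2847 and 2773 CPM. These are levels set side by side over groups of 2 libraries, and no relation between them was tested.

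The small subunits of ribonucleotide reductase differed. Rrm2b, the p53-inducible relative of Rrm2, fell with TGF-beta under control siRNA (17.1 and 18.5 to 14.3 and 13.6 CPM, -0.36 ± 0.11, adjusted p = 0.0232), PRMT1 siRNA (22.4 and 21.7 to 13 and 13.8 CPM, -0.71 ± 0.11, adjusted p = 0.000357), p53 siRNA (18.8 and 20.2 to 10.5 and 8.15 CPM, -1.07 ± 0.11, adjusted p = 1.24e-05) and both (-0.38 ± 0.11, adjusted p = 0.0181), while Rrm2 rose in all 4. The Rrm2b call under both siRNAs was lost without PRMT1_p53_siRNA replicate 1, PRMT1_p53_siRNA replicate 2 or PRMT1_p53_siRNA_TGFB replicate 1. Its call under control siRNA was not followed with libraries left out. Against control siRNA, p53 siRNA did not change Rrm2b by a called amount without TGF-beta (0.13 ± 0.11, adjusted p = 0.701). With TGF-beta it lowered Rrm2b (-0.58 ± 0.12, adjusted p = 0.0177). The latter call was lost without p53_siRNA_TGFB replicate 2 or either library of its control.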
